A study of Mus musculus with 43 samples.

Results

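Fragments of the threonine tRNAs (tRNA-Thr-AGT, tRNA-Thr-CGT and tRNA-Thr-TGT) and of the isoleucine tRNAs (tRNA-Ile-AAT and tRNA-Ile-TAT) were followed through epididymis tissue, epididymal fluid and sperm of mice. They were taken by name, as every listed RNA that was assigned to a tRNA-Thr or tRNA-Ile and to the class tRF_5′, tRF_3′ or tRF_other. A tRF, or tRNA-derived fragment, is a piece cut from a tRNA. A tRF_5′ lies at or near the 5′ end of the mature tRNA, a tRF_3′ at or near its 3′ end, and a tRF_other at neither end. Each of the 3 count tables (tissue, fluid and sperm) held 63 such RNAs, 42 of Thr and 21 of Ile, among 651, 645 and 654 nuclear tRFs and among 4890, 3178 and 4323 RNAs in all. They came from 21 isodecoders, which are tRNAs with 1 anticodon that differ elsewhere in their sequence: 7 of Thr-AGT, 4 of Thr-CGT, 3 of Thr-TGT, 4 of Ile-AAT and 3 of Ile-TAT.

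The mice were WT or Rnase9-12 KO males on the FVB background, 8 to 12 weeks old. The KO mice came from a single line in which CRISPR/Cas9 had removed the gene cluster of Rnase9, Rnase10, Rnase11 and Rnase12, and they were homozygous for the deletion. The epididymis is the coiled duct in which sperm mature, and sperm pass its caput (head), corpus (body) and cauda (tail) in this order. Small RNAs of tissue were sequenced with ARM-seq in 3 WT and 3 KO libraries of the caput and of the cauda and in 3 WT and 2 KO libraries of the corpus. Small RNAs of epididymal fluid (3 WT and 3 KO libraries for each segment) and of cauda sperm (4 WT and 4 KO libraries) were sequenced with OTTR-seq, each library from the pooled RNA of 3 mice. All RNA of both genotypes had been treated with polynucleotide kinase (PNK), which removes 3′ phosphates, so that cut ends of either kind could enter a library. The study calls the tissue libraries biological replicates as well, without saying how many mice each holds. All p-values measure the spread between these libraries.

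Thr-tRNAs and Ile-tRNAs carry threonine and isoleucine to the ribosome. The anticodon reads the codon in the mRNA, and the A of the AGT and AAT anticodons is changed to inosine in the mature tRNA. Ribonucleases such as angiogenin can cut mature tRNAs, often in the anticodon loop, which leaves 5′ and 3′ pieces. Fragments of this kind are abundant in the epididymis and its fluid, and sperm acquire small RNAs during their passage.

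The following genes are shown because they place the anticodon between the 5′ and 3′ pieces that the fragment classes separate. The first is a tRNA-Thr-AGT gene on chr7:35234770-35234843, minus strand, and the second a tRNA-Ile-TAT gene on chr13:21896938-21897031, minus strand, whose sequence still holds the intron that the mature tRNA lacks. The third is the microRNA miR-1983, annotated at chr13:21896930-21896950 on the minus strand, whose beginning overlaps the end of this tRNA-Ile-TAT gene. All 3 are from RefSeq on GRCm38.p6. Capitals mark the anticodon in the tRNA genes (bases 35 to 37) and, in miR-1983, the 13 bases inside the tRNA gene.
n-TTagt9: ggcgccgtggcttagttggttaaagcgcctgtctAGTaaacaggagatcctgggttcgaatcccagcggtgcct
n-TItat14: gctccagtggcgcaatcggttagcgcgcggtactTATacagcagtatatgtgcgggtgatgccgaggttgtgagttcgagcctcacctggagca
miR-1983: CTCACCTGGAGCAtgttttct

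RefSeq lists 33 mouse Thr and Ile tRNA genes: 9 of Thr-AGT, 4 of Thr-CGT, 4 of Thr-TGT, 15 of Ile-AAT and 1 of Ile-TAT. Of these, 15 lie on chromosome 13 and 7 on chromosome 11. The anticodons of this list were read from the gene names. The counted fragments came from 3 isodecoders of Ile-TAT, so the 1 gene of that name does not cover them. Ile-AAT genes were 73 to 96 bases long and the Ile-TAT gene 94. A Thr-TGT gene, n-TTtgt3 (chr14:51065168-51065240), lies 7925 bases from the end of the span of the Rnase9-12 genes, and n-TTtgt1 lies 31407 bases from it. The ends of the deletion are not given in the sources used here, so whether it touches regions near these genes was not tested.

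Total counts ran from 30142156 to 249732714 in the 17 tissue libraries, from 1948718 to 12320922 in the 18 fluid libraries and from 1134840 to 62128314 in the 8 sperm libraries. Nuclear tRFs made up 0.69% to 5.2% of counts in tissue, 73.6% to 87.9% in fluid and 1.51% to 8.39% in sperm. The section entry of 1 WT caput tissue library (replicate 3) and of the 6 caput fluid libraries reads cauda, whereas their titles and descriptions read caput, and the titles were followed. The small RNA tables held no row for the mRNAs of the Rnase9-12 genes, so the deletion itself was not checked here. Of 5 epithelial microRNAs taken as markers, 5 were found in each table, and both smooth muscle microRNAs were found too. In the bulk samples of tissue and sperm, fewer cells of a type and less RNA per cell cannot be told apart. The fluid had been cleared of sperm, cell debris and extracellular vesicles by centrifugation. Its microRNAs are therefore extracellular and do not measure the cells in a sample.

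Replicate 4 of WT sperm was the lowest WT library in all 15 sums and stood apart from the others in 3 of them. Replicate 4 of KO sperm stood apart in the share of Ile among all nuclear tRFs and in no sum. Sperm results are given with and without these libraries. Depth also moved with genotype in sperm: WT replicates 2 to 4 held 2899859, 1134840 and 3025269 counts and WT replicate 1 held 52607365, while KO replicates 1 to 3 held 44325673, 42764979 and 62128314 and KO replicate 4 held 3618739.

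Counts were summed over the isodecoders of an anticodon and are given as CPM, the counts per 1000000 of a library's TMM-scaled total. Single isodecoder fragments and microRNAs were scaled with another total, fitted before summing. In WT corpus fluid replicate 1, for example, it was 6697593, against 5244408 for sums. The CPM of isodecoder fragments therefore do not add up to those of the sums. A read that matched several isodecoders equally well was counted on each. The sums therefore raise anticodons with many isodecoders, and fragment types whose reads match many of them, and are not compared between anticodons. Some isodecoder fragments of different Thr anticodons held nearly the same counts over all libraries. The tRF_other of Thr-AGT-1, Thr-CGT-4 and Thr-TGT-1 held 13087, 12978 and 13060 in sperm and 21173, 20522 and 21317 in tissue. Whether these share reads was not tested, and the Thr sums may not be separate observations. Tissue, fluid and sperm tables were scaled separately, and their levels stand side by side without a test.

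In fluid, the fragments of all 5 anticodons stood highest in the caput and lowest in the KO corpus. Thr-AGT fragments had a mean of 15399 ± 4456 CPM (SD, n = 3) in the KO caput and 15128 ± 2073 CPM in the WT caput. They followed with 11397 ± 3791 CPM in the WT cauda, 8836 ± 2318 CPM in the WT corpus and 7839 ± 282 CPM in the KO cauda. The KO corpus was lowest with 3884 ± 756 CPM, and its libraries (3175 to 4680 CPM) lay below all others. Other neighbours in this order overlapped in their libraries.

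Thr-CGT fragments of fluid ran from 4341 ± 1235 CPM in the KO caput and 4302 ± 389 CPM in the WT caput to 2171 ± 777 CPM in the WT corpus and 1199 ± 233 CPM in the KO corpus. The WT caput (3992 to 4738 CPM) lay above the WT cauda (2208 to 3257 CPM), and the WT corpus (1553 to 3043 CPM) above the KO corpus (1002 to 1456 CPM). Thr-TGT fragments ran from 5819 ± 1959 CPM in the WT caput to 2245 ± 553 CPM in the KO corpus, and every neighbour in their order overlapped. Ile-AAT fragments were at 2582 ± 752 CPM in the KO caput and 2360 ± 55 CPM in the WT caput, with a gap to the WT corpus at 1181 ± 362 CPM. They ended with the KO corpus at 723 ± 139 CPM. Ile-TAT fragments were at 2815 ± 931 CPM in the KO caput, 2748 ± 322 CPM in the WT caput, 1444 ± 937 CPM in the WT cauda and 749 ± 142 CPM in the KO corpus. These orders are descriptions and were not tested as sums over the fragment types.

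In tissue, Thr-AGT fragments were at 612 ± 172 CPM in the WT caput, 483 ± 97.2 CPM in the WT corpus and 348 ± 117 CPM in the WT cauda (n = 3 each). KO levels were 623 ± 170, 530 ± 108 (n = 2) and 271 ± 87 CPM, and the genotypes overlapped in each segment. Ile-TAT fragments of the WT cauda (25.3 to 44.6 CPM) lay above those of the KO cauda (8.73 to 19.3 CPM), with means of 33.7 ± 9.86 and 14.8 ± 5.46 CPM. Ile-AAT fragments of the cauda had means of 113 ± 81.1 CPM in WT and 46.8 ± 18.3 CPM in KO, with the highest KO library at 67.1 CPM and the lowest WT library at 66.1 CPM. The means of Thr-CGT in tissue lay between 30.2 and 76.2 CPM and those of Thr-TGT had a maximum of 256 CPM, each highest in the WT caput and lowest in the KO cauda.

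In sperm, the mean of every anticodon was higher in WT than in KO, and every pair of ranges overlapped. Thr-AGT fragments were at 786 ± 425 CPM in WT and 453 ± 166 CPM in KO (n = 4 each), Thr-CGT at 303 ± 179 and 117 ± 45.1 CPM, and Thr-TGT at 332 ± 165 and 237 ± 86.6 CPM. Ile-AAT fragments were at 176 ± 109 and 62.9 ± 18.9 CPM, and Ile-TAT at 70.1 ± 25.6 and 36.2 ± 9.67 CPM. Replicate 4 was the lowest WT library for each anticodon, and for Thr-AGT it held 165 CPM where the highest WT library held 1067 CPM.

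**Figure D1:**
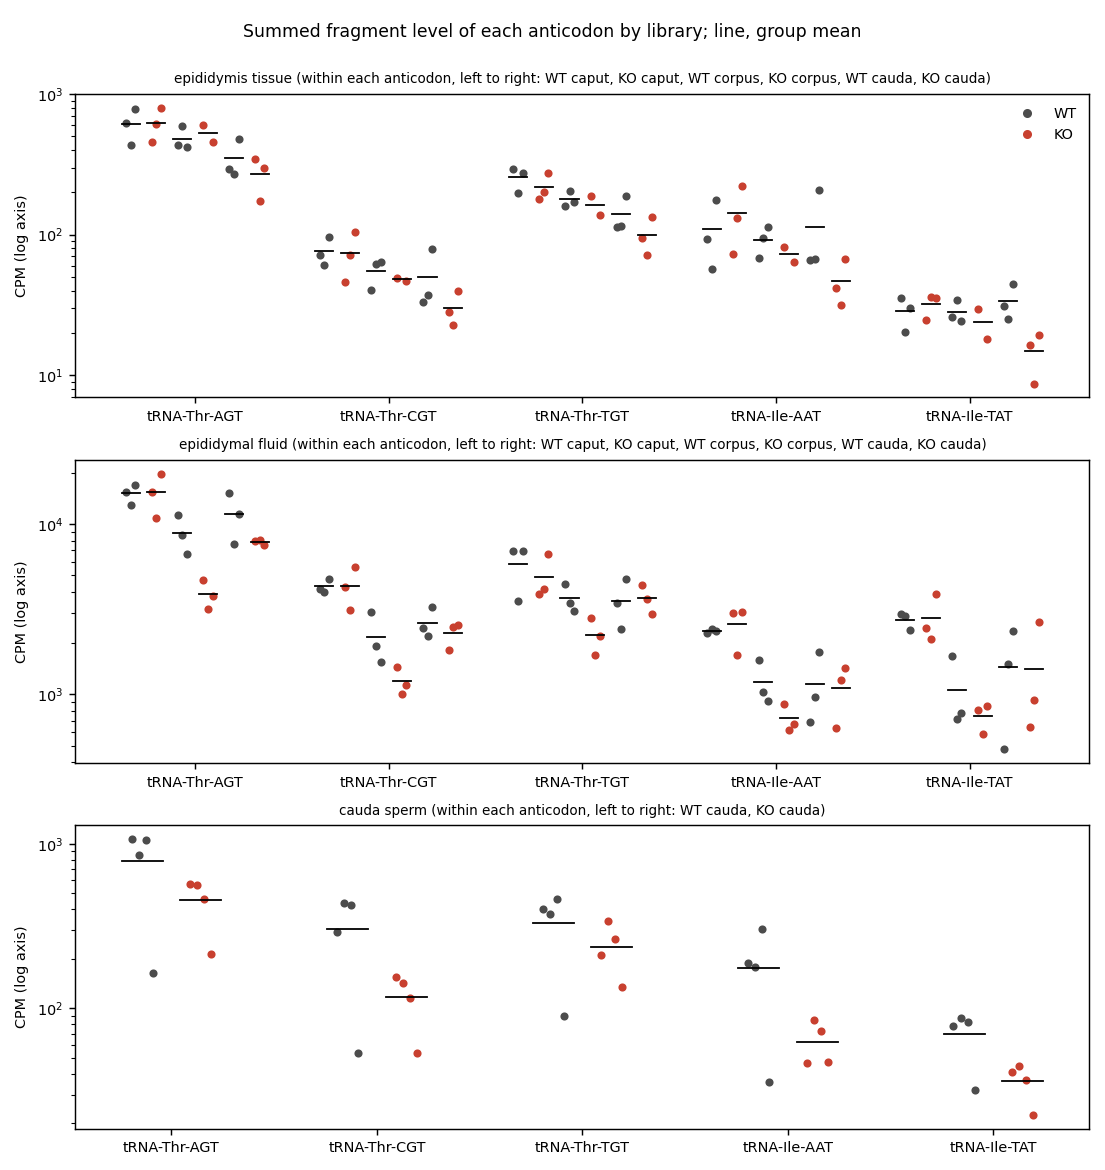
Summed fragments of each anticodon in CPM (log axis) in every library of tissue, fluid and sperm, with points for WT (grey) and KO (red) libraries and a line at each group mean. In fluid, the KO corpus has the lowest mean of each anticodon, for example 3884 CPM for Thr-AGT, and in sperm 1 WT library (replicate 4) lies well below the others.

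The 1 most counted isodecoder fragment of an anticodon is free of the repeated counting within sums, though not of reads that anticodons may share. The tRF_other of Thr-TGT-1 and Thr-CGT-4, for example, held 13060 and 12978 counts in sperm and may not be separate observations. In fluid it was a tRF_3′ for all 5 anticodons: Thr-AGT-1 (4265 CPM as a mean of all libraries, with the same counts as Thr-AGT-3), Thr-CGT-1 (1618 CPM), Ile-TAT-2 (1504 CPM), Thr-TGT-2 (1483 CPM, with the same counts as Thr-TGT-3) and Ile-AAT-3 (590 CPM). In tissue it was a tRF_3′ as well, led by Thr-AGT-1 (176 CPM) and Thr-TGT-2 (61.2 CPM) and lowest for Ile-TAT-2 (7.69 CPM). By the mean over WT and KO sperm it was a tRF_3′ of Thr-AGT-3 (72.1 CPM), whereas for the other anticodons it was a tRF_other, of Thr-TGT-1 (60.6 CPM), Thr-CGT-4 (60.1 CPM), Ile-AAT-1 (21.3 CPM) and Ile-TAT-1 (13.2 CPM). This order did not hold in KO sperm alone, where Thr-TGT-2 tRF_3′ (47 CPM) stood above Thr-TGT-1 tRF_other (44 CPM) and Ile-AAT-1 tRF_3′ (9.31 CPM) above Ile-AAT-1 tRF_other (7.55 CPM). Of the 63 isodecoder fragments, 2 in tissue, 12 in fluid and 12 in sperm had counts identical to those of another in every library.

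By summed counts, the prevailing fragment type was tRF_3′ in WT tissue and fluid and tRF_other in WT sperm. In WT caput fluid, tRF_3′ made up 99.7% of Thr-AGT counts, 93.6% of Thr-CGT, 94.4% of Thr-TGT, 79.4% of Ile-AAT and 90.7% of Ile-TAT (n = 3). In WT caput tissue, the same shares were 84.6%, 52.0%, 70.3%, 60.2% and 52.3%. In WT sperm, tRF_other made up most of the summed counts: 74.3% ± 7.4 of Thr-AGT, 63.0% ± 14 of Thr-CGT, 67.7% ± 7.5 of Thr-TGT, 52.9% ± 17 of Ile-AAT and 54.3% ± 12 of Ile-TAT (SD, n = 4). These shares include repeated counting. Over the 8 sperm libraries, each of the 7 Thr-AGT isodecoders held 12626 to 13087 tRF_other counts. The most counted Thr-AGT fragment there was a tRF_3′, of Thr-AGT-3, with 20203 counts. Tissue and fluid libraries were made with different protocols, so the protocol and the kind of sample cannot be told apart here, while fluid and sperm shared OTTR-seq. Ile-AAT had the largest tRF_5′ share of the 5 anticodons in sperm, 31.3% ± 17 in WT and 47.0% ± 17 in KO.

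In WT fluid, the mean tRF_other shares of Thr-TGT, Ile-AAT and Ile-TAT were larger in the corpus than in the caput or the cauda. The tRF_other share of Ile-TAT in the corpus was 18% ± 4.9 in WT and 4.37% ± 2.0 in KO, that of Thr-TGT was 20.1% ± 5.6 and 8.94% ± 0.41, and that of Ile-AAT was 26% ± 2.1 and 17.4% ± 1.4 (n = 3 each). Each of these 3 shares was lower in every KO library than in every WT library. The tRF_other share of Thr-AGT, in contrast, was higher in every KO library, 0.93% against 0.397% in the corpus and 0.362% against 0.15% in the caput. In caput fluid, the tRF_5′ shares of Thr-AGT (0.0596% in KO and 0.177% in WT), Thr-CGT (4.36% and 6.22%), Ile-AAT (8.66% and 13.8%) and Ile-TAT (2.88% and 7.82%) were also lower in every KO library. In cauda fluid, the tRF_5′ shares of Thr-AGT (0.332% in KO and 0.159% in WT) and of Thr-CGT (6.89% and 4.13%) were higher in every KO library. Tests were made for the tRF_5′ shares and for the Thr and Ile shares of all nuclear tRFs, 49 in all comparisons. With 3 libraries against 3, a 2-sided exact permutation test cannot go below 0.1, and none of the 49 passed an adjusted p of 0.05 (smallest 0.377). With so few libraries, no outcome of these 49 tests could have passed after adjustment, in sperm as elsewhere. They therefore cannot show whether the shares differ. The tRF_other and tRF_3′ shares were not tested.

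**Figure D2:**
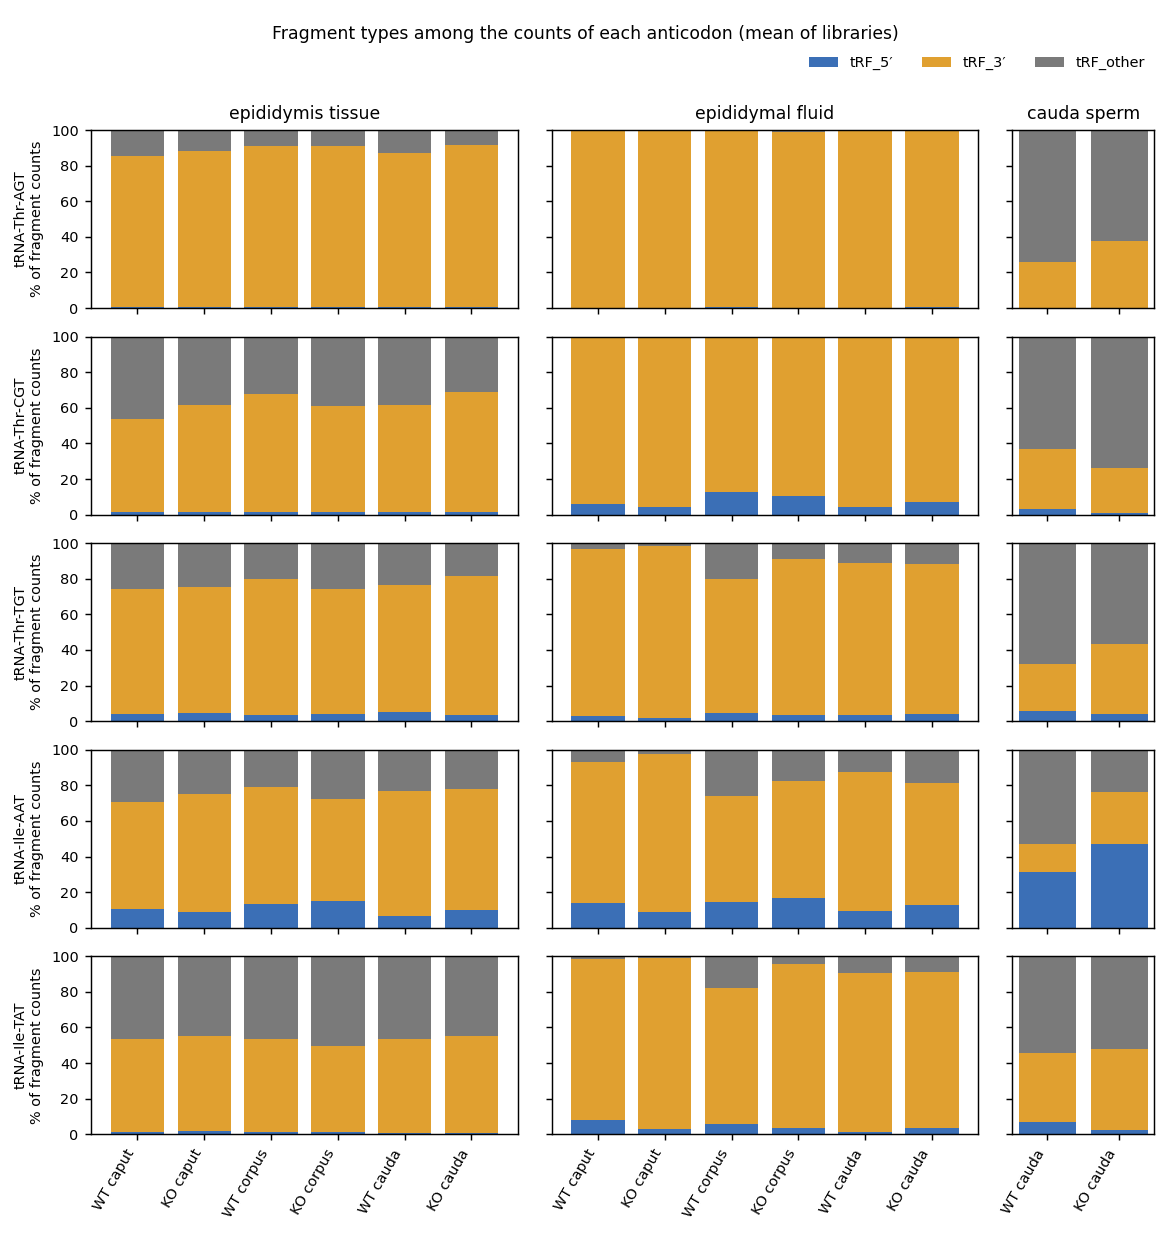
Mean share, in % of an anticodon's summed fragment counts, of tRF_5′ (blue), tRF_3′ (orange) and tRF_other (grey) in each group of tissue, fluid and sperm libraries. Fluid bars are mostly tRF_3′, such as 99.7% for Thr-AGT in the WT caput, sperm bars are mostly tRF_other in WT, and the grey share of Ile-TAT and Thr-TGT in corpus fluid is smaller in KO.

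Isodecoders of 1 anticodon did not contribute alike. These shares were chosen after their values were seen. Ile-TAT-2 gave 95.3% ± 0.56 of the tRF_3′ counts of Ile-TAT in fluid (SD over 18 libraries), 54.2% ± 4.9 in tissue and 61.0% ± 7.3 in sperm. Thr-TGT-3 gave 86.7% ± 2.5 of the tRF_5′ counts of Thr-TGT in fluid, 84.1% ± 6.3 in sperm and 53.5% ± 1.6 in tissue. For Ile-AAT tRF_5′ in tissue, the 4 isodecoders each held between 24.9% and 25.2%.

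Whole tRNAs of Thr and Ile, counted apart from the fragments, were scarce. The Thr sum was between 5 and 90 counts in tissue libraries and at most 11 in fluid and 2 in sperm. The Ile sum was at most 5 counts in tissue and 1 in fluid and in sperm.

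The question of the study was whether loss of Rnase9-12 alters small RNAs along the epididymis, and KO was compared with WT for the 15 sums of anticodon and fragment type in each segment. For a call, edgeR's p adjusted over all RNAs of the table had to be under 0.05 and the log2 fold change beyond 1 in either direction. Counts at an unadjusted p under 0.05, and DESeq2 counts printed without a share, lack the share of all RNAs. They are given as descriptions. All 15 sums passed the filter on low counts in each table. The isodecoder fragments that passed were 57 in tissue, 50 in fluid and 44 in sperm.

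In corpus fluid, 6 of the 15 sums fell in KO and none rose, where 5.03% of all RNAs and sums tested fell and 12% rose. They covered each of the 5 anticodons and each fragment type: Thr-AGT tRF_5′ and tRF_3′, Thr-CGT tRF_5′, and tRF_other of Thr-TGT, Ile-AAT and Ile-TAT. All 15 log2 fold changes were negative, with a median of -1.05 against 0.10 over all RNAs tested and -0.72 over the sums of other nuclear tRFs, of which 32 of 134 fell. Libraries of the genotypes did not overlap for 9 of the 15 sums, where 34.5% of all RNAs did not overlap. Nuclear tRFs as a whole made up 78.9% ± 4.30 of counts in the WT corpus and 76.9% ± 3.29 in the KO corpus (SD, n = 3), with overlap. The falls also depended on scaling: with library size only, edgeR called 3 sums lower and 12 were negative. No share of all RNAs is given for that setting, in which the median over all RNAs was 0.352.

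Ile-TAT tRF_other had the largest difference. It was measured at 348, 88.7 and 162 CPM in the WT libraries and at 34.5, 37.8 and 20.5 CPM in the KO libraries. The lowest WT value was above the highest KO value, and WT replicate 1 stood highest. The log2 fold change was -2.69 (SE 0.49, edgeR adjusted p = 0.00465). Isodecoder fragments were scaled apart from the sums, and their CPM do not add up to them. All 3 isodecoders of Ile-TAT had a called fall in this class. That of Ile-TAT-1, for example, was at 116, 38.7 and 65.8 CPM in WT and at 11.6, 16.5 and 7.46 CPM in KO (log2 fold change -2.62, SE 0.56, edgeR adjusted p = 0.00244), and that of Ile-TAT-2 was at 119, 41.4 and 67.0 CPM in WT and at 16.4, 19.2 and 8.29 CPM in KO (-2.36, SE 0.53, adjusted p = 0.00342). By contrast, Ile-TAT tRF_3′, the bulk of this anticodon in fluid, had a log2 fold change of -0.22.

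Thr-TGT tRF_other was at 1072, 472 and 694 CPM in WT and at 243, 150 and 208 CPM in KO, again without overlap. Its log2 fold change was -1.90 (SE 0.45, edgeR adjusted p = 0.00629). Ile-AAT tRF_other was at 402, 252 and 260 CPM in WT and at 159, 98.1 and 122 CPM in KO, and fell by 1.27 on the log2 scale (SE 0.40, edgeR adjusted p = 0.035). For Thr-AGT the same class overlapped between the genotypes: Thr-AGT tRF_other was at 59.3, 20.1 and 28.6 CPM in WT and at 31.4, 24.7 and 50.9 CPM in KO.

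Among the 5′ pieces, Thr-AGT tRF_5′ was at 57.8, 30.6 and 25.8 CPM in WT and at 11.4, 8.57 and 11.8 CPM in KO. The genotypes were well apart, with a log2 fold change of -1.85 (SE 0.41, edgeR adjusted p = 0.00465). Its called isodecoder fragments were those of Thr-AGT-2 and Thr-AGT-4, which had identical counts (21.8, 14.4 and 10.7 CPM in WT and 5.21, 3.78 and 5.39 CPM in KO, edgeR adjusted p = 0.00933). Thr-CGT tRF_5′ was at 396, 226 and 193 CPM in WT and at 142, 109 and 115 CPM in KO, a log2 fold change of -1.16 (SE 0.40) that passed narrowly (edgeR adjusted p = 0.0488). Thr-TGT tRF_5′ (305, 91.8 and 130 CPM in WT against 81.9, 58.5 and 86.4 CPM in KO) and Ile-TAT tRF_5′ (48.2, 52.1 and 55.9 CPM against 32.1, 16.1 and 27.6 CPM) did not overlap either, with edgeR adjusted p of 0.0621 and 0.119.

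Among the 3′ pieces, Thr-AGT tRF_3′, the most counted of the 15 sums, was at 11143, 8554 and 6587 CPM in WT and at 4637, 3142 and 3735 CPM in KO. The genotypes were again apart in all libraries, and the log2 fold change was -1.19 (SE 0.32, edgeR adjusted p = 0.0136). Thr-CGT tRF_3′ was at 2622, 1684 and 1348 CPM in WT and at 1301, 885 and 1010 CPM in KO, a difference of -0.82 on the log2 scale that was not called (edgeR adjusted p = 0.0752). At the level of isodecoder fragments, 10 of the 50 tested fell in corpus fluid and none rose, where 6.23% of all RNAs tested fell and 13.5% rose.

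The falls of Ile-TAT tRF_other, Thr-TGT tRF_other and Thr-AGT tRF_5′ were called in all 8 alternative settings and without each of the 6 libraries in turn. Of the 8 settings, 7 called Ile-AAT tRF_other, 5 called Thr-AGT tRF_3′ and 4 called Thr-CGT tRF_5′. Thr-AGT tRF_3′ was not called without KO replicate 2 (-1.07) or KO replicate 3 (-1.18). Ile-AAT tRF_other and Thr-CGT tRF_5′ were not called without WT replicate 1 (-1.14 and -0.91) or without any 1 of the KO replicates (-1.46 to -1.11 and -1.27 to -1.08), and the count of calls was 3 without KO replicate 2 and 3 without KO replicate 3. The KO corpus libraries were also shallower, with 1948718 to 3373869 counts against 3989262 to 10172577 in WT. The summed epithelial microRNAs (5 of 5 found) were higher in KO corpus fluid, 103 CPM (87.5 to 134) against 50.4 CPM (27.1 to 62.6), as were those of germ cells and sperm (3 of 5 found), 14.2 CPM (12.8 to 15.4) against 6.90 CPM (3.58 to 9.06). The part of depth and of what these microRNAs reflect in the result was not tested.

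**Figure D3:**
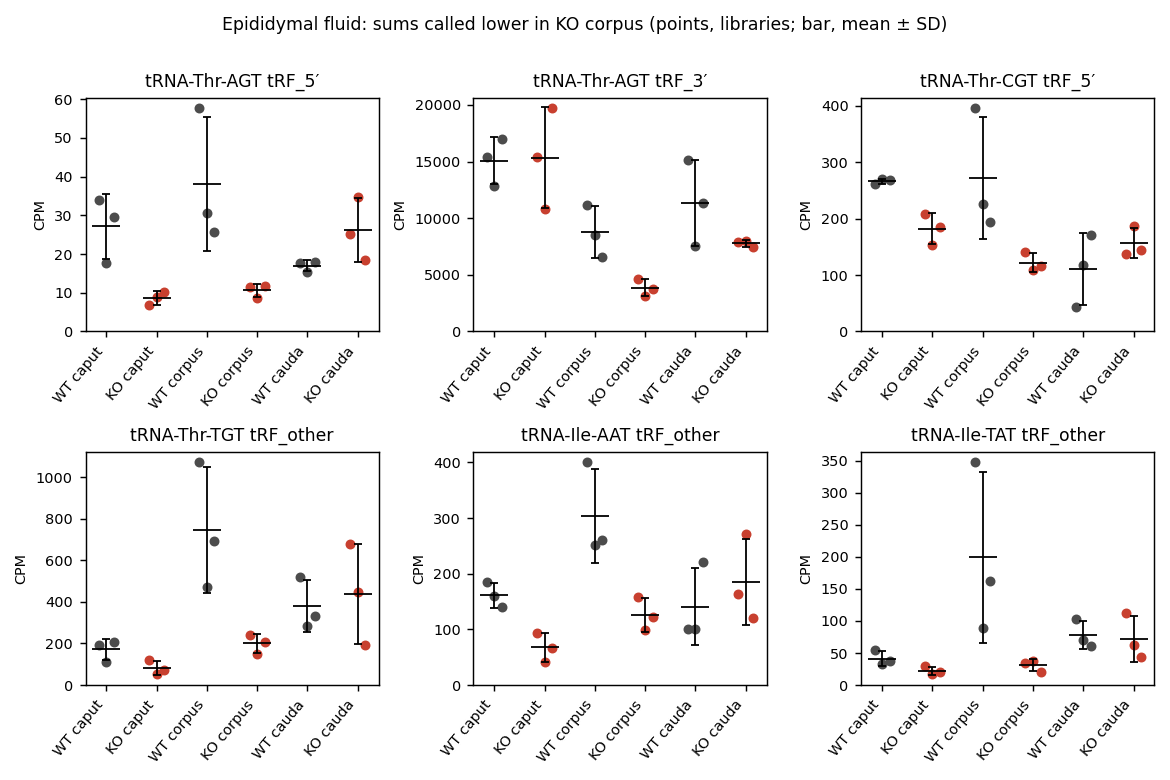
The 6 sums that fell in KO corpus fluid, in CPM for each fluid library (points, WT grey and KO red), with mean and SD as bars. In the corpus, every KO library lies below every WT library, for example at most 37.8 CPM against at least 88.7 CPM for Ile-TAT tRF_other, whereas in the cauda the genotypes of this sum overlap.

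In caput fluid, none of the 15 sums was called by edgeR, where 0% of all RNAs were called in either direction. Before adjustment, 4 sums were lower and 1 was higher at p under 0.05, and DESeq2 called 1, without a share of all RNAs given for these counts. Thr-AGT tRF_5′ was at 34.1, 17.7 and 29.6 CPM in WT and at 6.82, 9.01 and 10.3 CPM in KO. The genotypes did not overlap, and the log2 fold change was -1.64 (SE 0.40, edgeR adjusted p = 0.188). DESeq2 gave -1.61 with an adjusted p of 0.00694 for this sum, and edgeR with the 2 groups alone also called it (adjusted p = 0.0262).

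Ile-AAT tRF_other of caput fluid was at 185, 160 and 140 CPM in WT and at 94.3, 42.3 and 66.9 CPM in KO (log2 fold change -1.25, edgeR adjusted p = 0.282). Ile-TAT tRF_5′ was at 129, 331 and 182 CPM in WT and at 61.0, 57.5 and 133 CPM in KO, overlapping by the highest KO library (-1.35, edgeR adjusted p = 0.282). Thr-AGT tRF_other went the other way, from 30.9, 15 and 22.9 CPM in WT to 76.2, 39.7 and 45.7 CPM in KO (1.23, edgeR adjusted p = 0.298). In all, 6 of the 15 sums did not overlap, where 27.8% of all RNAs did not. The epithelial microRNAs moved with genotype here too, 262 CPM (241 to 298) in KO against 137 CPM (103 to 182) in WT, and their part was not tested.

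In cauda fluid, edgeR called none of the 15 sums, where 0% of all RNAs fell and 0.248% rose. At an unadjusted p under 0.05 there was 1, Ile-TAT tRF_5′, and DESeq2 called 0. The log2 fold changes were negative for 5 sums, and for 10 with DESeq2 size factors. Ile-TAT tRF_5′ was at 8.37, 17.2 and 25.1 CPM in WT and at 30.6, 44.7 and 24.2 CPM in KO (log2 fold change 0.98, edgeR adjusted p = 0.428). Thr-AGT tRF_5′, which fell in the corpus, was at 17.6, 15.3 and 18 CPM in WT and at 25.2, 34.9 and 18.5 CPM in KO, with every KO library above every WT library and a log2 fold change of 0.62. Thr-AGT tRF_3′ was at 15149, 7552 and 11307 CPM in WT and at 7884, 7978 and 7437 CPM in KO. Its KO libraries lay close together and within or just below the WT range. In all, 2 of the 15 sums did not overlap in cauda fluid, where 12.7% of all RNAs did not.

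The KO effects in corpus and cauda fluid were compared directly as interaction terms. For 3 of the 15 sums the difference passed an adjusted p of 0.05 in edgeR, where 5.65% of all RNAs did. The corpus effect was lower than the cauda effect by -2.58 on the log2 scale for Ile-TAT tRF_other (SE 0.67, edgeR adjusted p = 0.0359), by -2.47 for Thr-AGT tRF_5′ (SE 0.56, adjusted p = 0.0359) and by -2.11 for Thr-TGT tRF_other (SE 0.62, adjusted p = 0.05). None of the 3 passed without WT corpus replicate 1 (-1.77, -1.93 and -1.59), KO corpus replicate 1, WT cauda replicate 2 or KO cauda replicate 2, while 1 sum passed without KO corpus replicate 3 or KO cauda replicate 1 and 5 passed without KO cauda replicate 3. Ile-TAT tRF_other did not pass without WT cauda replicate 3 either (-2.32), and Thr-TGT tRF_other passed only without WT cauda replicate 1 or KO cauda replicate 3. Of 6 alternative settings, 4 kept Ile-TAT tRF_other and Thr-AGT tRF_5′ and 2 kept Thr-TGT tRF_other.

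**Figure D4:**
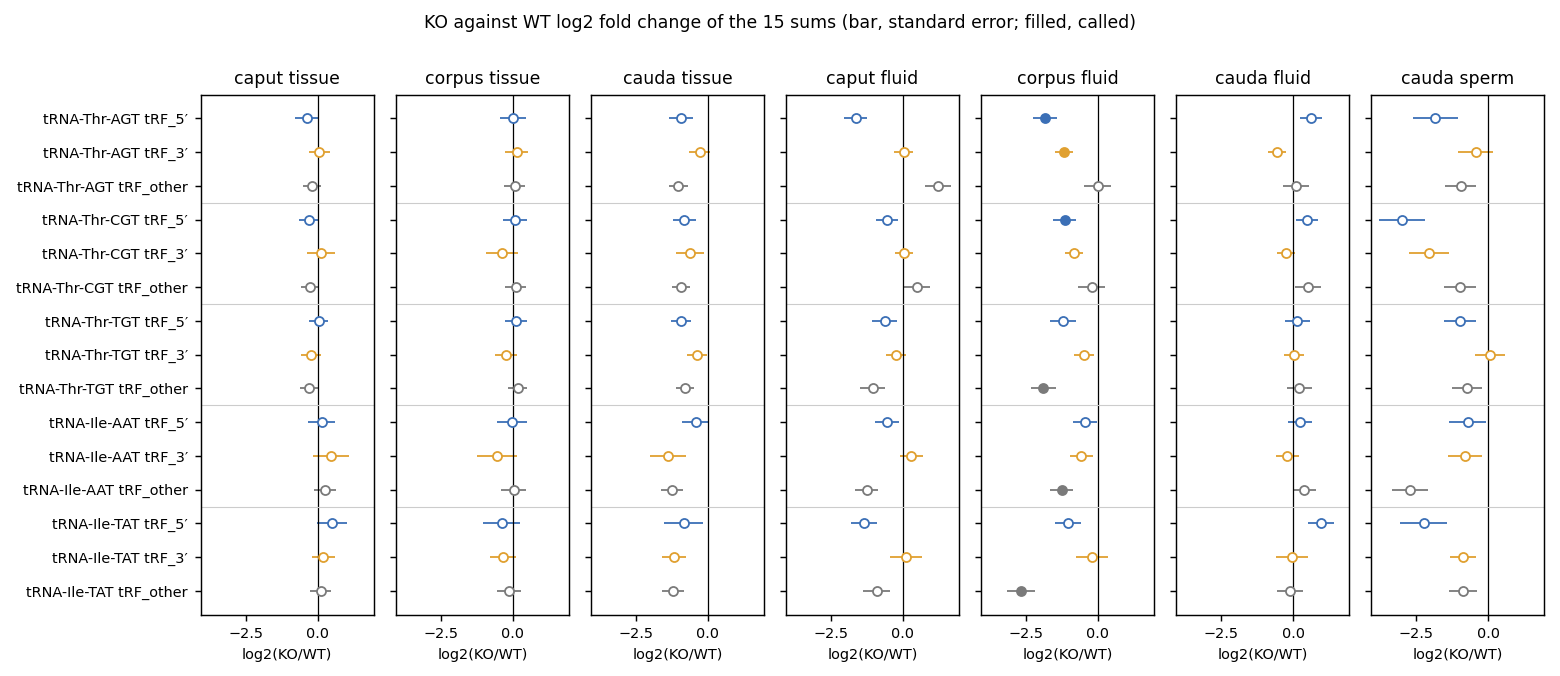
Log2 fold change of KO against WT for the 15 sums (rows) in each segment of tissue and fluid and in sperm (panels), with the standard error as a bar and called sums filled; colours give tRF_5′ (blue), tRF_3′ (orange) and tRF_other (grey). Filled points occur in corpus fluid alone, from -2.69 to -1.16, and in cauda tissue all 15 points lie below 0.

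In cauda tissue, all 15 sums were lower in KO, and none was called by edgeR, where 0.956% of all RNAs fell. At an unadjusted p under 0.05 there were 9, and DESeq2 called 5, where it called 1.56% of all RNAs lower. The median log2 fold change was -0.93 (0.04 over all RNAs and -0.70 over other nuclear tRFs, of which 1 of 135 fell), and 8 of the 15 sums did not overlap, where 13.8% of all RNAs did not. Nuclear tRFs as a whole made up 2.69% ± 1.85 of counts in the WT cauda and 1.21% ± 0.78 in the KO cauda (SD, n = 3).

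Ile-TAT tRF_other of cauda tissue was at 16.2, 12.3 and 17.5 CPM in WT and at 8.5, 3.7 and 7.7 CPM in KO, with a log2 fold change of -1.21 (SE 0.37, edgeR adjusted p = 0.196). Ile-AAT tRF_other was at 18.6, 15.5 and 38.6 CPM in WT and at 8.69, 7.82 and 14.1 CPM in KO (-1.25, SE 0.40, adjusted p = 0.202 in edgeR). Thr-AGT tRF_other was at 41.5, 35.8 and 55.2 CPM in WT and at 20.7, 18.4 and 26.3 CPM in KO (-1.02, SE 0.32, adjusted p = 0.202 in edgeR). The genotypes did not overlap for any of these 3 internal fragment sums, and replicate 3 was the highest library of both genotypes for Ile-AAT and Thr-AGT. Thr-AGT tRF_3′, in contrast, was at 248, 232 and 426 CPM in WT and at 320, 155 and 269 CPM in KO, with a log2 fold change of -0.28.

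Cauda tissue libraries with the same number deviated together. With a block for the replicate number, 4.75% of all RNAs fell and 6.04% rose, and 4 sums fell, all of Ile: Ile-AAT tRF_other (-1.15, edgeR adjusted p = 0.0199), Ile-AAT tRF_3′ (-1.15, adjusted p = 0.0188), Ile-TAT tRF_other (-1.25, adjusted p = 0.0118) and Ile-TAT tRF_3′ (-1.15, adjusted p = 0.0216). The Ile-AAT tRF_3′ values were 41.9, 46.7 and 162 CPM in WT and 25.8, 21.6 and 49.5 CPM in KO, so that KO was lower within each number though the genotypes overlapped. None of the 57 isodecoder fragments tested was called without the block, where 0.831% of all RNAs fell and 0.0287% rose. At an unadjusted p under 0.05 there were 24, and DESeq2 called 8, without a share of all RNAs given for either count. Without KO replicate 3, 4.92% of all RNAs fell, and edgeR called 6 sums, among them Ile-AAT tRF_other (-1.76, adjusted p = 0.0366) and Thr-TGT tRF_5′ (-1.54, adjusted p = 0.0158).

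In caput and corpus tissue, edgeR called none of the 15 sums, and 0% of all RNAs were called in either. At an unadjusted p under 0.05 there were 0 in both, and DESeq2 called 0 in both. Of the 15 log2 fold changes, 6 were negative in the caput and 7 in the corpus (9 and 15 with library size only), and just 2 KO libraries entered for the corpus. Smooth muscle microRNAs (2 of 2 found) were lower in KO corpus tissue, 26.9 CPM (24.3 to 29.5) against 61.9 CPM (44.2 to 87.5), as were those of epithelium, 10.6 CPM (10.5 to 10.7) against 20.6 CPM (16.3 to 25.9), and the scarce ones of blood (2 of 5 found), 0.0127 CPM against 0.0738 CPM. No Thr or Ile sum was without overlap between the genotypes, where 7.52% of all RNAs in the caput and 26.8% in the corpus were. The difference between the KO effects in cauda and caput tissue passed for 0 sums in edgeR (0% of all RNAs), with 3 at an unadjusted p under 0.05.

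In cauda sperm, 14 of the 15 sums were lower in KO and none was called by edgeR, where 0% of all RNAs were called. At an unadjusted p under 0.05 there were 5, and DESeq2 called 2, where it called 1.31% of all RNAs lower. The median log2 fold change was -0.96, with -0.07 over all RNAs and -1.03 over other nuclear tRFs. Ile-AAT tRF_other was at 52.3, 121, 185 and 19.6 CPM in WT and at 17.5, 14.7, 14.3 and 10 CPM in KO. It was the 1 sum whose genotypes did not overlap, where 7.83% of all RNAs did not, and its log2 fold change was -2.73 (SE 0.63, edgeR adjusted p = 0.183). Leaving out WT replicate 4 gave -3.0 (edgeR adjusted p = 0.00234), and leaving out replicate 4 of both genotypes gave -2.89 (adjusted p = 0.0196).

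Thr-CGT tRF_5′ of sperm was at 13.6, 19.6, 12.8 and 0.612 CPM in WT and at 0.955, 2.5, 1.74 and 0 CPM in KO. A count of 0 in KO replicate 4 allows up to 0.834 CPM at 3 counts, which covers counting error only. The first 3 WT libraries lay above all KO libraries and WT replicate 4 lay among them, with a log2 fold change of -2.99 (SE 0.81, edgeR adjusted p = 0.204). Thr-CGT tRF_3′ was at 66.7, 205, 184 and 11.9 CPM in WT and at 25, 36, 33.2 and 16.7 CPM in KO (-2.07, SE 0.70, edgeR adjusted p = 0.278). Without WT replicate 4, edgeR called both (-3.30, adjusted p = 0.00433, and -2.37, adjusted p = 0.00796), where 4.37% of all RNAs fell, and without replicate 4 of both genotypes too, where 2.64% fell (-3.09, adjusted p = 0.0196, and -2.21, adjusted p = 0.0400). The count of isodecoder fragments called lower was 0 with all libraries and 9 without WT replicate 4, where 7.3% of all RNAs fell.

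The most abundant sperm sum, Thr-AGT tRF_other, was at 697, 674, 752 and 135 CPM in WT and at 434, 340, 267 and 119 CPM in KO. Thr-TGT tRF_other was at 303, 264, 265 and 60.3 CPM in WT and at 134, 195, 143 and 68.7 CPM in KO. In both, replicate 4 was low in each genotype. MicroRNAs of epithelium (15 CPM in WT and 19.1 CPM in KO) and of germ cells and sperm (29.7 and 36.1 CPM, 4 of 5 found) overlapped between the genotypes. Those of blood (3 of 5 found) overlapped too, with 6.37 CPM (2.64 to 7.82) in WT and 25.4 CPM (1.7 to 56.1) in KO, and their part in the result was not tested.

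**Figure D5:**
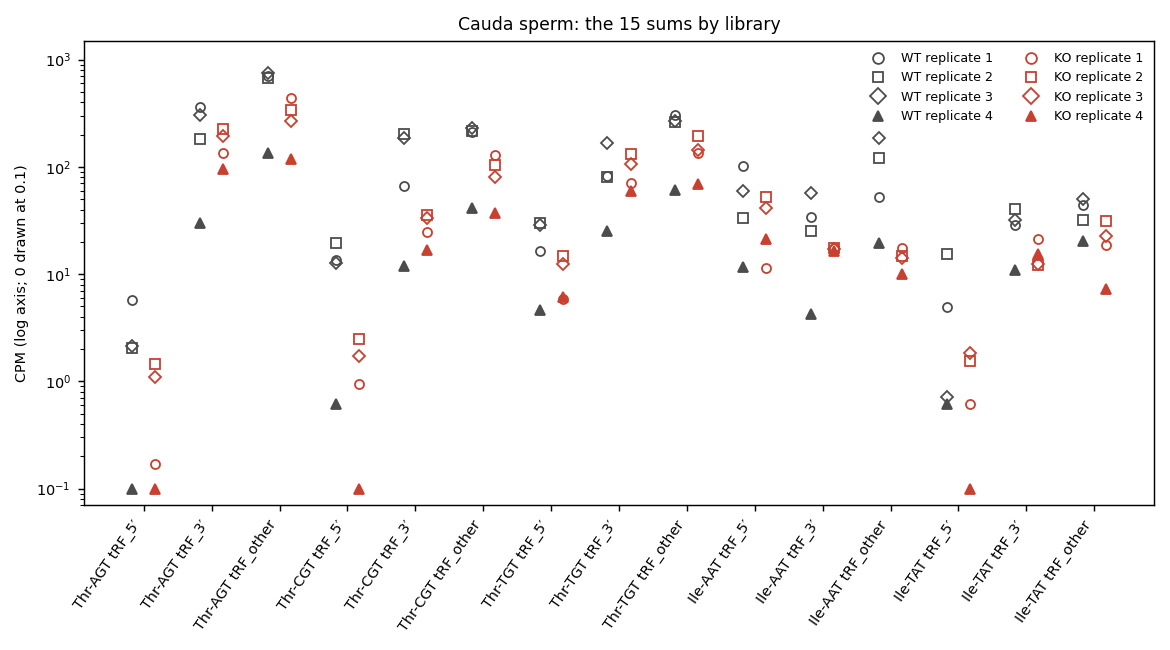
The 15 sums in each of the 8 sperm libraries in CPM (log axis, with 0 drawn at 0.1); WT is grey, KO is red, and replicate 4 of each genotype is a filled triangle. The WT triangle lies below the other WT libraries in each sum, for example at 135 CPM for Thr-AGT tRF_other, and the KO libraries of Ile-AAT tRF_other, 10 to 17.5 CPM, lie below all WT libraries.

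WT segments were compared to describe the same fragments without the deletion. From WT caput to WT corpus fluid, 3 of the 15 sums fell and 2 rose in edgeR, where 6.08% of all RNAs fell and 7.7% rose, and 10 sums did not overlap, where 35.4% of all RNAs did not. Ile-TAT tRF_other was at 54.4, 32.7 and 36.9 CPM in the caput and at 348, 88.7 and 162 CPM in the corpus, a rise of 2.27 on the log2 scale (SE 0.48, edgeR adjusted p = 0.00497). Thr-TGT tRF_other was at 194, 111 and 208 CPM in the caput and at 1072, 472 and 694 CPM in the corpus (2.12, SE 0.45, edgeR adjusted p = 0.00514). Both sums also enter the comparison of KO with WT corpus fluid above, which uses the same WT corpus libraries.

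Ile-TAT tRF_5′ changed in the opposite direction along the duct. It was at 129, 331 and 182 CPM in WT caput fluid, at 48.2, 52.1 and 55.9 CPM in the corpus and at 8.37, 17.2 and 25.1 CPM in the cauda, without overlap between segments. The log2 fold change against the caput was -2.04 in the corpus (SE 0.47, edgeR adjusted p = 0.00767) and -3.67 in the cauda (SE 0.50, edgeR adjusted p = 8.65e-05). It was called in every alternative setting and without each library in turn in both comparisons.

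Ile-AAT tRF_3′ was at 1808, 1888 and 1922 CPM in WT caput fluid and at 983, 654 and 494 CPM in the corpus (-1.40, SE 0.41, edgeR adjusted p = 0.0271), and Thr-CGT tRF_3′ fell by 1.10 (SE 0.32, edgeR adjusted p = 0.0260). Neither of these 2 calls was stable: the fall of Ile-AAT tRF_3′ was not called without any 1 of the 6 libraries (-1.65 to -1.18), and that of Thr-CGT tRF_3′ was called only without WT corpus replicate 1. Of the 8 alternative settings, 6 called the former and 4 the latter. From WT caput to WT cauda fluid, 3 sums fell and none rose, where 15.8% of all RNAs fell and 7.7% rose, and 7 did not overlap, where 42.3% of all RNAs did not. Beside Ile-TAT tRF_5′ these were Ile-AAT tRF_5′ (310, 365 and 301 CPM in the caput and 36.2, 138 and 156 CPM in the cauda, -1.57, SE 0.43, edgeR adjusted p = 0.0114) and Thr-CGT tRF_5′ (261, 270 and 268 CPM and 43.8, 118 and 172 CPM, -1.26, SE 0.40, edgeR adjusted p = 0.0251). With DESeq2 size factors 2 fell and 1 rose. Without WT cauda replicate 1, the lowest library of Ile-AAT tRF_5′ and Thr-CGT tRF_5′, neither of these was called (-0.69 and -0.42). The same held without WT caput replicate 3 (-1.14 and -0.77), and Thr-CGT tRF_5′ was not called without WT caput replicate 1 or 2 either (-1.27 in both). Of the 8 alternative settings, 2 called Thr-CGT tRF_5′ and 5 called Ile-AAT tRF_5′.

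In WT tissue, 1 sum fell from caput to cauda and none rose, where 7.16% of all RNAs fell and 17.9% rose, and 6 did not overlap, where 39.4% of all RNAs did not. It was Thr-TGT tRF_other, at 78.8, 64 and 50 CPM in the caput and at 29.8, 28.7 and 35.9 CPM in the cauda (-1.03, SE 0.31, edgeR adjusted p = 0.0189). The call was lost without WT caput replicate 1 or 2 or any 1 of the WT cauda replicates (-0.98 to -0.74). The same class of Thr-AGT (-0.93, edgeR adjusted p = 0.0427) and of Thr-CGT (-0.92, adjusted p = 0.0445) missed the fold threshold. From caput to corpus tissue, edgeR called 0 sums, where 2.44% of all RNAs fell and 10% rose, with 4 at an unadjusted p under 0.05 and 3 called by DESeq2, and 4 did not overlap, where 23.9% of all RNAs did not. With the replicate number as a block, which paired these libraries, 5.47% of all RNAs fell and 14.5% rose, and 4 Thr sums fell: tRF_other of Thr-AGT (-1.20, edgeR adjusted p = 0.00474), Thr-CGT (-1.19, adjusted p = 0.0059) and Thr-TGT (-1.07, adjusted p = 0.00978), and Thr-TGT tRF_5′ (-1.0, adjusted p = 0.0202).

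The microRNA miR-1983, which shares 13 bases with the end of the Ile-TAT gene shown above, was at 13.4 ± 5.69 CPM in WT caput fluid and 10 ± 3.62 CPM in KO caput fluid (SD, n = 3). It was at 3.52 ± 1.21 and 1.43 ± 1.24 CPM in the corpus and at most 0.0869 CPM in any tissue library. The part of this overlap in either count was not tested.

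The anticodons with the most similar patterns were sought among 46 other nuclear anticodons, by the Pearson correlation of log2 CPM over the libraries of a table. In fluid (18 libraries), Asn-GTT was the closest to Thr-CGT (r = 0.965), Ile-AAT (0.934) and Thr-AGT (0.876), Lys-CTT to Ile-TAT (0.914) and Met-CAT to Thr-TGT (0.872), where the medians over the 46 lay between 0.475 and 0.596. In tissue (17 libraries), Leu-TAA was closest to Ile-AAT (0.984), Pro-AGG to Thr-TGT (0.977), iMet-CAT to Thr-CGT (0.973), Met-CAT to Ile-TAT (0.944) and Leu-CAA to Thr-AGT (0.940). In sperm (8 libraries), Pro-CGG was closest to Thr-CGT (0.989), Ala-AGC to Thr-AGT (0.988), Tyr-GTA to Ile-AAT (0.987), Met-CAT to Ile-TAT (0.971) and Leu-CAG to Thr-TGT (0.957). The points of each pair share libraries and depth, and these correlations are descriptions.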

How the data were processed

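The deposited values were read counts per RNA, made by the authors with a modified tRAX pipeline: adapter trimming with cutadapt, molecular tags with UMI-tools for OTTR-seq, and mapping with bowtie2 to mm10, mature tRNAs from gtRNAdb and rRNAs. The study states that only reads specific to 1 amino acid and anticodon counted for tRNAs, and a read with equal matches counted on each. Even so, some Thr fragments of different anticodons held nearly equal counts, and whether they share reads was not tested. Intervals and limits cover counting error only.

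Members, lists and tests were chosen with earlier results of these data known. In each table, counts were summed by anticodon and fragment type, filtered with filterByExpr (minimum count 10, minimum total 15), scaled by TMM and fitted with all groups in edgeR 4.0.16 (quasi-likelihood, Benjamini-Hochberg over all RNAs, R 4.3.3). CPM used the TMM-scaled totals, fitted separately for the sums and for the isodecoder fragments and microRNAs. Shares were compared by 2-sided exact permutation tests (Python 3.11.15, numpy 2.4.6). DESeq2 1.42.0, other scalings, no filter, 2 groups alone, a replicate block, the most counted isodecoder and leaving out libraries were alternatives. Leaving out replicate 4 of both sperm groups was added after seeing the data. The model was tested on simulated counts.

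All 15 sums could be named. Isodecoder fragments were named when most counted in a table or among the 2 Thr and 2 Ile calls with the smallest p and no overlap. Replicate numbers in titles were taken to pair libraries where all same-numbered deviations correlated above 0.1, which held for cauda tissue (r = 0.289, 0.249 and 0.591) and for WT tissue segments (0.303 to 0.635), and not for the other comparisons. KO against WT caput tissue, for example, had 0.0642, 0.509 and 0.725. Missing this limit does not show that libraries are unpaired. The main test held no block in any comparison.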

Additional observations from a re-analysis of the deposited data

Results flagged for a closer look

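In WT sperm, replicate 4 stood apart from the other 3 libraries in 3 sums. It held 135 CPM of Thr-AGT tRF_other, 41.0 CPM of Thr-CGT tRF_other and 60.3 CPM of Thr-TGT tRF_other, with gaps of 0.874, 0.916 and 0.839 of the group's range. In KO sperm, replicate 4 stood apart in the share of Ile among all nuclear tRF counts, 0.342%, with a gap of 0.878 of the range. Of 44 groups of values examined in this way, chance alone marks about 1 in 20.

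The KO effect differed between corpus and cauda fluid for Ile-TAT tRF_other (-2.58 on the log2 scale, corpus minus cauda), Thr-AGT tRF_5′ (-2.47) and Thr-TGT tRF_other (-2.11), tested as interaction terms in edgeR. These calls were not stable. With 12 libraries left out in turn, they were kept 5, 8 and 2 times, and 4, 4 and 2 of 6 alternative settings kept them.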

How the results depend on the processing

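Of 150 counts of calls recomputed under other settings, 122 stayed within 1.5 times the value reported and 28 did not. The counts below are printed without the share of all RNAs called in each setting, and are descriptions. Calls of isodecoder fragments in KO cauda tissue (0) became 1 with library size only, 8 with DESeq2 and 7 with the replicate block, and calls of sums there (0) became 5 with DESeq2 and 4 with the block. WT corpus against caput tissue (0) gave 3 with DESeq2 size factors, 3 with TMM from RNAs other than tRNA and rRNA features, 3 with DESeq2 and 4 with the block. WT cauda against caput tissue (1) gave 3, 0, 8 and 3 with DESeq2 size factors, library size only, TMM from other RNAs and DESeq2. With TMM from other RNAs, the median log2 fold change of all RNAs was -0.528 there, against 0.002 with the scaling reported.

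In caput fluid, DESeq2 called 2 isodecoder fragments and 1 sum (0 and 0 reported), edgeR 1 sum with the 2 groups alone and 2 with the block (Thr-AGT tRF_5′, -1.57, and Thr-AGT tRF_other, 1.27). In corpus fluid, TMM from other RNAs called 27 isodecoder fragments (10 reported) and library size only 3 sums (6 reported). With TMM from other RNAs, the median log2 fold change of all RNAs was -0.71 at that level, against 0.098 with the scaling reported. WT corpus against caput fluid (5) gave 3 with TMM from other RNAs, 8 with the 2 groups alone and 3 with the most counted isodecoder. WT cauda against caput fluid (3) gave 5 with DESeq2. The interaction of corpus and cauda fluid (3) gave 0 with library size only and 0 without a filter. In sperm (0), DESeq2 called 9 isodecoder fragments and 2 sums, the block 1 sum, and leaving out both replicates 4, 7 isodecoder fragments and 3 sums. Thr-CGT tRF_3′ in WT cauda against caput fluid changed sign with the most counted isodecoder, to 0.20. The cause of these changes was not tested.

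With libraries left out in turn, the counts ran from 0 to 1 (isodecoder fragments) and 0 to 6 (sums) in KO cauda tissue, 2 to 10 and 3 to 7 in KO corpus fluid, and 0 to 9 and 0 to 3 in KO sperm. They ran from 0 to 2 and 0 to 1 for the WT corpus and cauda against the caput in tissue, 3 to 4 and 2 to 5 in fluid, and 0 to 5 for the interaction in fluid. The 10 isodecoder fragments of corpus fluid became 2 without WT replicate 1 and 6 without KO replicate 3. WT caput replicate 3 and WT corpus replicate 2 decided the tissue corpus counts (2 and 1 without them), and WT cauda tissue replicate 3 gave 1 isodecoder fragment when left out. WT corpus against caput fluid gave 3 without WT caput replicate 1 or 3 or WT corpus replicate 2 or 3, and WT cauda against caput fluid gave 5 without WT cauda replicate 3.

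The 15 negative differences of KO corpus fluid became 12 with library size only, the 2 groups alone and the block. Other scalings moved the median of all RNAs by -0.808 to 0.291 on the log2 scale. In fluid and sperm, replicate numbers did not meet the rule for pairing, and whether they pair the libraries is not known. The block result is given only as an alternative, and it changed no other call count by over 1.5 times. In sperm, replicate 4 held counts of 0 in some tRF_5′ sums, which allows up to 0.834 CPM in KO and 0.918 CPM in WT.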
